A study of Homo sapiens with 24 samples.

Results

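The genes described here are 43 interferon-inducible and antigen presentation genes in HT29 cells, a human cell line derived from a colon adenocarcinoma. The set was named by symbol, with earlier results of these data known. All 43 were on the array, with 60 of its 50599 probes, among 36337 named genes. The set was followed in untreated cells (NT) and after 6 h with C3/C2, a mixture of 30 mM propionate with 15 mM acetate, with SN (the culture supernatant of a propionibacterium, diluted 2-fold), with TRAIL (100 ng/ml, given with 2 µg/ml of anti-Flag antibody M2) or with TRAIL+C3/C2 or TRAIL+SN, and 4 arrays were run per group, 24 in all. C3/C2 holds the short-chain fatty acids that the supernatant contains, and TRAIL is a ligand of the TNF family that triggers cell death through its receptors, so that the design sets the acids, the supernatant and the death ligand, alone and together, against untreated cells. A level is the log2 intensity of a gene's brightest probe minus the 75th percentile of its array, so a level of 0 is that percentile and a step of 1 is a 2-fold change on the same probe. A probe was kept where all 4 arrays of at least 1 group were well above background, and 42 of the 43 members passed, among 20703 genes. GBP1, the remaining member, was well above background on no array of TRAIL+C3/C2, on 1 of 4 in C3/C2, on 2 in each of NT, SN and TRAIL and on 3 in TRAIL+SN, and was not tested. A gene was said to rise or fall where it changed at least 2-fold with an adjusted p under 0.05 in the limma fit over all genes.

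Interferons are secreted when cells sense foreign nucleic acid, and they act through receptors that activate transcription factors. A complex that holds STAT2 and IRF9 binds interferon-stimulated response elements (ISRE) and switches on genes whose products block viral replication, such as the IFIT, OAS and MX families and ISG15. Interferon gamma acts through gamma-activated sites (GAS) and induces IRF1, which together with NF-κB drives the genes of antigen presentation. In that pathway the immunoproteasome subunits PSMB8, PSMB9 and PSMB10 cut proteins, TAP1 and TAP2 carry the peptides into the endoplasmic reticulum, TAPBP helps to load them, and HLA class I molecules with B2M show them at the cell surface. Colon epithelial cells use this system to present their contents to T cells.

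The promoters of IRF1, TAP1 and ISG15, which rose, and of IFIT3 and IFI44L, which fell, are shown first, since the letters of the same response element occur on both sides. Promoter windows of RefSeq (GRCh38.p14), from 250 bases before the start of the gene to 50 after it, were found for 33 of the 43 members, and capitals mark the matches to the motifs given after them.
IRF1, chr5:132490724-132491023, minus strand: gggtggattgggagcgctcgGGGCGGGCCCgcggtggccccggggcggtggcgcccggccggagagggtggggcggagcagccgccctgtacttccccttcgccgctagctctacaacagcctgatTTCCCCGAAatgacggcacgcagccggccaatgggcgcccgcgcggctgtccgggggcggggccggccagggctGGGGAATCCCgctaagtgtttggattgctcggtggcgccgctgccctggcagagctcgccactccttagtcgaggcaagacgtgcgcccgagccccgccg
TAP1, chr6:32853655-32853954, minus strand: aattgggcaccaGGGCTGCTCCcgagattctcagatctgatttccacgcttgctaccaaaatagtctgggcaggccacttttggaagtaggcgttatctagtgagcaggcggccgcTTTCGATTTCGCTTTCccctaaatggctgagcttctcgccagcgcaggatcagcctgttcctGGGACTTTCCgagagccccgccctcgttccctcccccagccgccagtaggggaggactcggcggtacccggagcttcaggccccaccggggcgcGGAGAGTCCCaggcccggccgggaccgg
ISG15, chr1:1013247-1013546, plus strand: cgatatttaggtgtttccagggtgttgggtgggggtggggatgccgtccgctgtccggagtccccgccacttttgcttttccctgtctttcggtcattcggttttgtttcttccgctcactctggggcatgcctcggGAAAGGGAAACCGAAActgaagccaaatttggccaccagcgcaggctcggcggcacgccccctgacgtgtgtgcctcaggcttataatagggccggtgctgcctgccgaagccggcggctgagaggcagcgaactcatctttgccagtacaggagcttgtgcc
IFIT3, chr10:89327747-89328046, plus strand: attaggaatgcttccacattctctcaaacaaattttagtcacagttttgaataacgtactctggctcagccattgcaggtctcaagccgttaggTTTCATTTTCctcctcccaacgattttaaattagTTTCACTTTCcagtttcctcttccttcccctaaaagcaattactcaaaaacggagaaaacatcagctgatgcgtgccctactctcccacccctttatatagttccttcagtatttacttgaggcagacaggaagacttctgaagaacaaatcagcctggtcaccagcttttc
IFI44L, chr1:78620198-78620497, plus strand: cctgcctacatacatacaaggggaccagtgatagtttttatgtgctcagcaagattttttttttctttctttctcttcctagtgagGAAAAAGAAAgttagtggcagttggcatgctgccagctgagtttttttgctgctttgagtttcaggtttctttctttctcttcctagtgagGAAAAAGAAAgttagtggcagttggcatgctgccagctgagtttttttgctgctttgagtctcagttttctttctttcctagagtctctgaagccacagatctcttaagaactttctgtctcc
The ISRE letters searched were GAAA, any 2 bases and GAAA. The GAS letters were TTCNNNGAA, and the NF-κB letters were GGG, any 4 bases and either TCC or CCC. Both strands were searched, and matches may overlap, as the ISRE matches of ISG15 and of TAP1 do. ISRE matches occurred in 23 of the 33 windows (69.7%), against 3.65% of all 27305 promoter windows. The GAS letters occurred in 24.2% of the members' windows and in 7.88% of all windows. The NF-κB letters ending in TCC occurred in 42.4% and 22.2%, and those ending in CCC in 6.06% and 17.1%. Of the members with a window, 7 rose and 6 fell in at least 1 treatment, and ISRE matches were present in 4 of the 7 and in 6 of the 6, against 12 of the 19 that were called in no treatment. ISG15, which rose, and IFIT3 and IFI44L, which fell, each held 2 ISRE matches. IRF1 had a GAS match and 2 NF-κB matches ending in CCC and no match to the ISRE letters, and TAP1 had 2 ISRE matches and 3 NF-κB matches ending in TCC. A match describes these letters in this window and was not tied to binding.

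**Figure D1:**
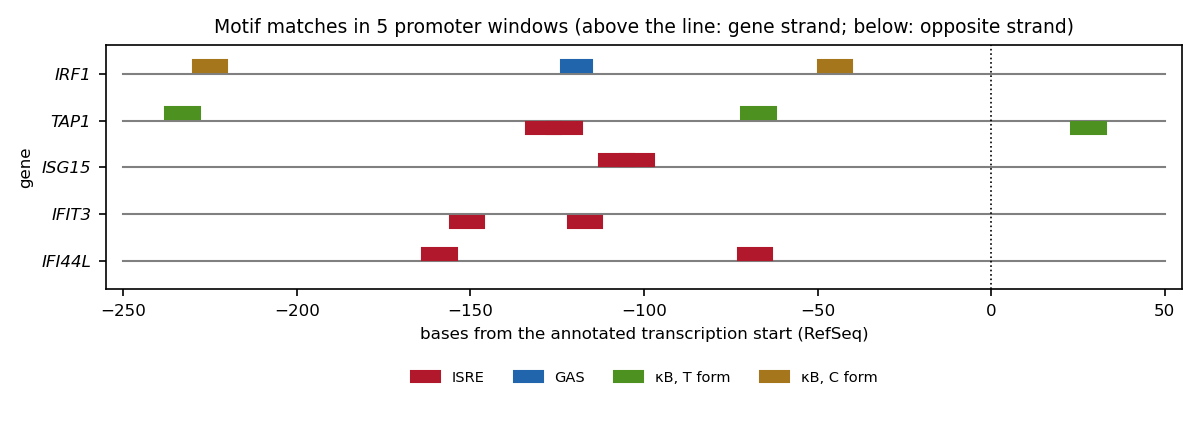
Matches to 4 motifs (coloured boxes) in the promoter windows of 5 members, by distance in bases from the annotated start (x axis). IRF1 holds GAS and κB letters, TAP1 ISRE and κB letters, and ISG15, IFIT3 and IFI44L 2 ISRE matches each.

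Before the treatments are compared, the arrays of a group have to be described, since they did not scatter evenly. In 33 of the 42 members, both of the replicates numbered 1 and 2 lay above both of those numbered 3 and 4 in every one of the 6 groups, and in 0 members was the order the opposite. Over all genes tested, 4.75% showed the first order and 3.14% the second. Averaged over the 6 groups, replicates 1 and 2 were above 3 and 4 by 2.31 on the log2 scale (4.96-fold) in IFI6, by 2.04 in IFI44L, by 1.85 in IFITM1, by 1.70 in IFI27 and by 1.52 in IFIT1. IFI6 showed the largest such difference of the 20703 genes tested, and the median was 0.55 over the members and 0.01 over all genes. In untreated cells IFI6, a small mitochondrial and membrane protein, was at 3.00, 3.00, 0.37 and 0.69. IFI6 kept that order in every group and was at 3.69, 3.78, 1.51 and 1.47 in TRAIL+SN. The difference was close to 0 for IRF2 (-0.02), GBP2 (0.06) and PSMB10 (0.11). In IRF9 it was 0.86 in NT and 0.89 in TRAIL but between 0.05 and 0.16 in the 4 groups with C3/C2 or SN, and in MX1 it was 1.43 in NT and 0.40 in C3/C2. The study describes 2 independent experiments in duplicate, and the labels do not assign the numbers to experiments, so this order is a description by replicate number, made after the values were seen, and has no test. Standard errors of the fit without a term for the replicate number include it, and a fit with the replicate number as a block is given where it changes a call. P-values measure the spread between these arrays, part of which may be technical.

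**Figure D2:**
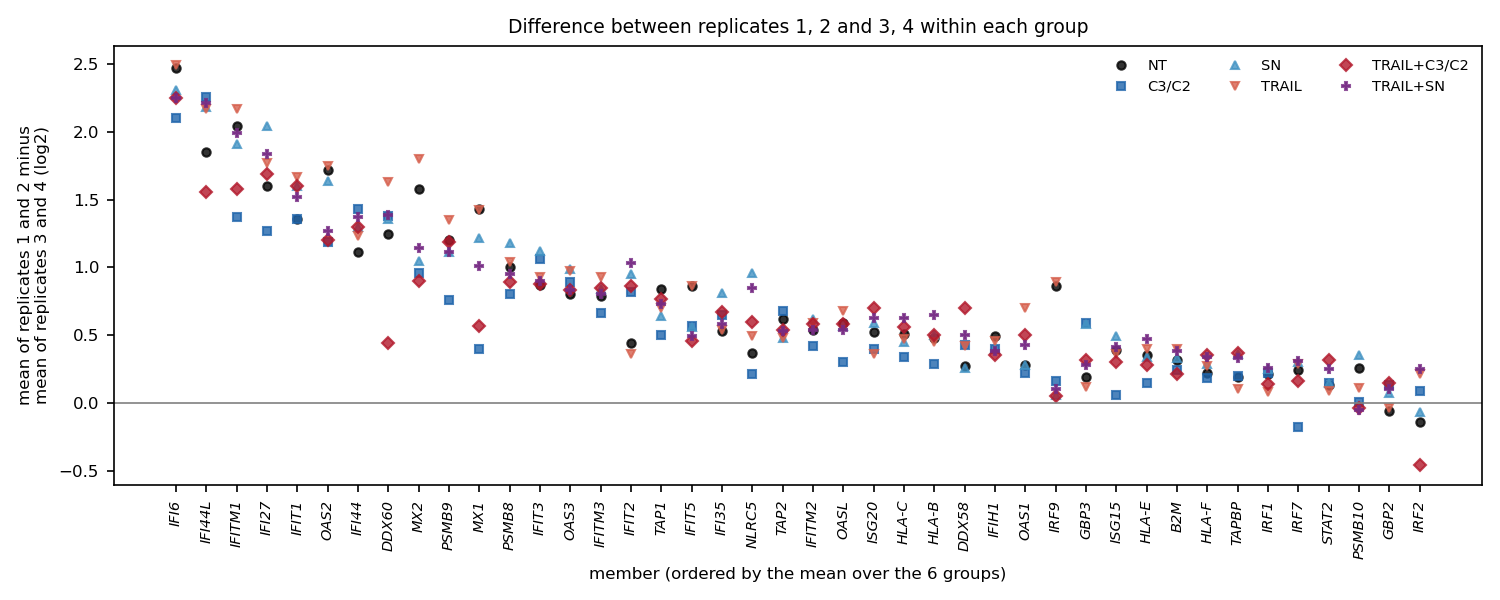
For each member (x axis), the mean level of replicates 1 and 2 minus that of replicates 3 and 4 in each of the 6 groups (y axis, log2). Most members lie above 0 in all groups, with IFI6, at a mean of 2.31, at the left.

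OASL and IRF7 rose and IFIT3, IFI44, IFI44L and GBP3 fell with both C3/C2 and SN, alone and with TRAIL, while TRAIL alone raised TAP1 and IRF1. Most members were not called, 33 of 42 with C3/C2 and 28 with SN. With C3/C2, 2 of 42 members rose (4.76%, against 13.4% of all genes tested) and 7 fell (16.7%, against 6.18%). With SN, 8 rose (19.0%, against 14.2% of all genes) and 6 fell (14.3%, against 9.75%). With TRAIL, 2 rose (4.76%, against 0.749% of all genes) and 0 fell, against 2.18%. With TRAIL+C3/C2, 8 rose (19.0%, against 16.2%) and 5 fell (11.9%, against 7.94%), and with TRAIL+SN, 10 rose (23.8%, against 16.1%) and 5 fell (11.9%, against 10.1%). The share of members that rose was thus below the background with C3/C2 and above it with TRAIL, and the share that fell was above it with C3/C2. In all, 19 members changed in at least 1 treatment and 23 in none, and 0 members rose in one treatment and fell in another. No shares over all genes are given for these counts, so they describe the members alone. The comparisons with NT share the NT arrays. C3/C2 and NT lay on the same 2 slides, and with the slide as a block 2 members were higher and 7 lower, as without it, against 2 and 6 within slide 2 alone. SN and TRAIL shared a slide of their own and the co-treatments another, so in their comparisons with NT the slide and the treatment cannot be told apart. Scaling the arrays to their median or to the spike-in probes moved the median difference of all genes, by the most in TRAIL+C3/C2, where it was 0.10 with the 75th percentile and -0.63 with the spike-in probes. The members moved with it: 27 of the 42 had a difference above 0 with TRAIL+C3/C2 under the 75th percentile and 12 with the spike-in probes, against 27 and 16 with TRAIL+SN. Counted from the median of all genes, which a constant per array cannot change, 37 members were higher with TRAIL, 26 with SN, 21 with C3/C2 and 25 with either co-treatment. Quantile normalization gave 37, 26 and 24 for TRAIL, SN and C3/C2, and it gave 27 in TRAIL+C3/C2 against 25 in TRAIL+SN.

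**Figure D3:**
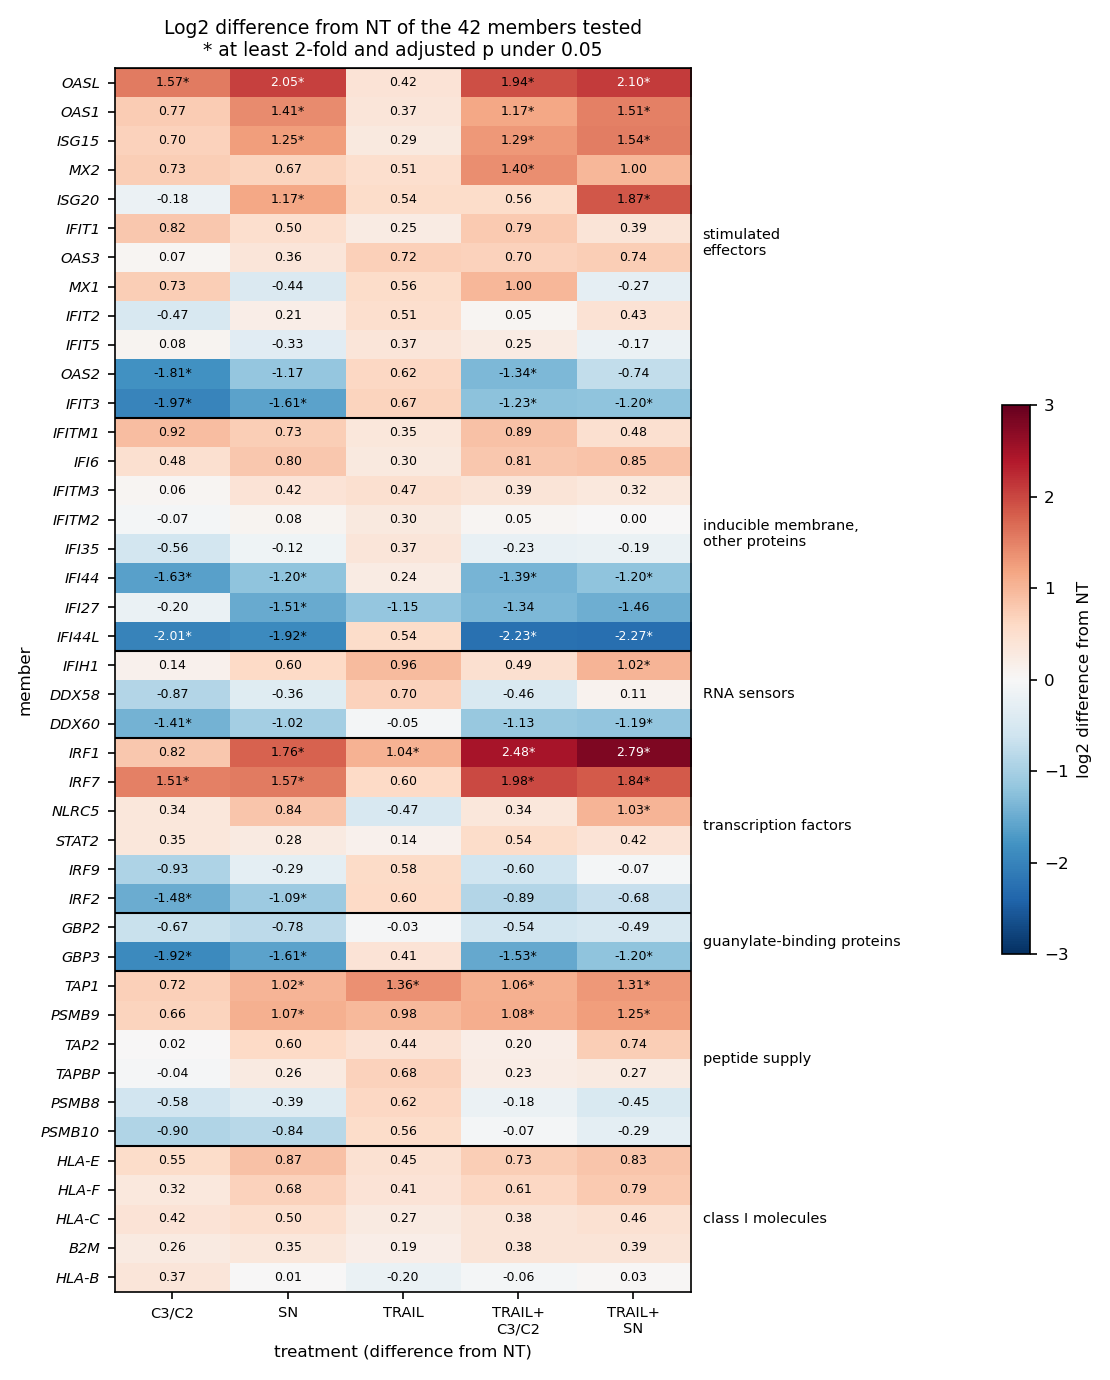
Log2 difference from NT (colour and number) of the 42 members tested (rows, grouped by role) in the 5 treatments (columns), with an asterisk where a member changed at least 2-fold at an adjusted p under 0.05. The rises of IRF1, IRF7 and OASL and the falls of IFI44L, IFIT3 and GBP3 recur across treatments, and TAP1 and IRF1 carry the only asterisks in the TRAIL column.

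Among the transcription factors, IRF1 and IRF7 rose and IRF2 fell. IRF1 activates class I and immunoproteasome genes. IRF1 levels were 0.09, -0.19, -0.31 and -0.21 in NT, 0.82, 0.71, 0.52 and 0.58 in C3/C2 and 1.76, 1.71, 1.43 and 1.54 in SN. IRF1 stood at 0.96, 0.89, 0.80 and 0.89 in TRAIL, 2.42, 2.37, 2.29 and 2.21 in TRAIL+C3/C2 and 2.75, 2.77, 2.41 and 2.59 in TRAIL+SN. Its groups were ordered NT, C3/C2, TRAIL, SN, TRAIL+C3/C2 and TRAIL+SN by their means, and the C3/C2 and TRAIL arrays overlapped, as did those of both co-treatments. The difference of IRF1 from NT was 1.76 (SE 0.10, adjusted p = 8.32e-13) with SN, which is 3.4-fold. TRAIL gave 1.04 (SE 0.10, adjusted p = 8.02e-08), TRAIL+C3/C2 2.48 (SE 0.10, adjusted p = 3.43e-15) and TRAIL+SN 2.79 (SE 0.10, adjusted p = 4.48e-16), the last of these 6.9-fold. With C3/C2 alone it was 0.82 with an adjusted p of 1.94e-07 and missed the 2-fold limit. With TRAIL, the difference of IRF1 was 0.79 under spike-in scaling and 0.95 with normexp background correction, both under the 2-fold limit, and 0.99 without NT replicate 3.

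IRF7, the factor that amplifies type I interferon production, rose in every treatment with C3/C2 or SN. IRF7 levels were 4.37, 4.51, 4.20 and 4.21 in NT, 5.72, 5.76, 5.90 and 5.94 in C3/C2 and 6.04, 6.05, 5.78 and 5.70 in SN. IRF7 stood at 4.97, 5.17, 4.78 and 4.78 in TRAIL, 6.40, 6.35, 6.26 and 6.18 in TRAIL+C3/C2 and 6.25, 6.37, 5.99 and 6.01 in TRAIL+SN. No array of those 4 groups overlapped those of NT or TRAIL. IRF7 rose by 1.51 (SE 0.11, adjusted p = 8.06e-11) with C3/C2 and by 1.57 (SE 0.11, adjusted p = 3.35e-11) with SN. The rise was 1.98 (SE 0.11, adjusted p = 8.19e-13) for TRAIL+C3/C2 and 1.84 (SE 0.11, adjusted p = 2.37e-12) in TRAIL+SN. With TRAIL it was 0.60, adjusted p = 0.000207, short of 2-fold.

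IRF2, which can repress the genes that IRF1 activates, was dim. IRF2 levels were -4.32, -4.55, -4.46 and -4.13 in NT, -5.79, -5.82, -5.60 and -6.18 in C3/C2 and -5.61, -5.37, -5.31 and -5.52 in SN. IRF2 stood at -3.53, -3.79, -3.93 and -3.81 in TRAIL, -5.62, -5.33, -5.44 and -4.61 in TRAIL+C3/C2 and -5.21, -4.63, -4.99 and -5.36 in TRAIL+SN. It was well above background on all 4 arrays of NT and TRAIL, but on 1 of 4 in C3/C2 and TRAIL+C3/C2 and on 2 of 4 in SN and TRAIL+SN. All C3/C2 and SN arrays lay below those of NT. IRF2 fell with C3/C2, at a difference of -1.48 (SE 0.18, adjusted p = 3.76e-07), and with SN, at -1.09 (SE 0.18, adjusted p = 2e-05). With normexp background correction, which lifts dim signals, these differences were -0.38 and -0.25 and were no longer 2-fold. IRF9, the DNA-binding partner of STAT2, was called in none of the treatments. IRF9 levels were 0.04, 0.23, -0.74 and -0.71 in NT, -1.22, -1.07, -1.27 and -1.33 in C3/C2 and -0.42, -0.69, -0.68 and -0.54 in SN. IRF9 stood at 0.65, 0.80, -0.17 and -0.16 in TRAIL, -0.85, -0.89, -0.94 and -0.91 in TRAIL+C3/C2 and -0.32, -0.31, -0.34 and -0.49 in TRAIL+SN. Its lowest group was C3/C2, with a difference of -0.93 (adjusted p = 0.000529), and its highest TRAIL, with 0.58 (adjusted p = 0.0365). The C3/C2 difference of IRF9 passed 2-fold under the other scalings, at -1.23 with the array median, -1.02 with quantile normalization and -1.08 with the spike-in probes, and with these probes that of TRAIL+C3/C2 was -1.34. STAT2, its partner, was called in none, with differences of up to 0.54. STAT2 levels were 2.80, 2.61, 2.59 and 2.56 in NT, 3.10, 3.03, 2.84 and 2.99 in C3/C2 and 3.02, 2.95, 2.84 and 2.84 in SN. STAT2 stood at 2.78, 2.86, 2.78 and 2.68 in TRAIL, 3.35, 3.32, 2.99 and 3.04 in TRAIL+C3/C2 and 3.19, 3.18, 2.95 and 2.93 in TRAIL+SN. All treated groups had a mean above that of NT, 2.64 ± 0.11 (SD, n = 4), but scaled to the spike-in probes TRAIL, TRAIL+C3/C2 and TRAIL+SN gave STAT2 differences of -0.11, -0.20 and -0.09.

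NLRC5 is the transactivator of class I genes. NLRC5 levels were -2.75, -3.07, -3.15 and -3.40 in NT, -2.58, -2.72, -2.75 and -2.98 in C3/C2 and -1.84, -1.72, -2.63 and -2.85 in SN. NLRC5 stood at -3.59, -3.04, -4.02 and -3.59 in TRAIL, -2.41, -2.50, -3.03 and -3.09 in TRAIL+C3/C2 and -1.70, -1.58, -2.53 and -2.46 in TRAIL+SN. It was called with TRAIL+SN, by 1.03 (SE 0.27, adjusted p = 0.00178), and the call was lost without NT replicate 4 or without TRAIL+SN replicate 1 or 2 (differences of 0.87 to 0.92), and under each other scaling and normexp (0.52 to 0.88). Its groups with SN lay highest and TRAIL lowest, with a difference of -0.47 from NT (adjusted p = 0.195). A second NLRC5 probe was well above background on none of the arrays of NT, TRAIL or TRAIL+C3/C2 and was not tested.

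Of the 12 cytosolic effectors, OASL, OAS1, ISG15, ISG20 and MX2 rose in at least 1 treatment, and IFIT3 and OAS2 fell. OASL, an OAS-like protein that sensitises RNA sensing, showed the largest rise of the set in C3/C2 and in SN. OASL levels were 0.37, 0.34, -0.37 and -0.10 in NT, 1.84, 1.73, 1.46 and 1.51 in C3/C2 and 2.38, 2.41, 1.84 and 1.80 in SN. OASL stood at 0.74, 0.90, 0.21 and 0.08 in TRAIL, 2.33, 2.27, 1.63 and 1.80 in TRAIL+C3/C2 and 2.47, 2.39, 1.82 and 1.96 in TRAIL+SN. All arrays with C3/C2 or SN lay above all arrays of NT and TRAIL. OASL rose by 1.57 (SE 0.22, adjusted p = 2.38e-06) with C3/C2 and by 2.05 (SE 0.22, adjusted p = 4.62e-08) with SN. The rise was 1.94 (SE 0.22, adjusted p = 1e-07) for TRAIL+C3/C2 and 2.10 (SE 0.22, adjusted p = 2.92e-08) in TRAIL+SN. ISG15, a ubiquitin-like modifier, rose by 1.25 (SE 0.15, adjusted p = 1.78e-07) with SN, and by 1.29 and 1.54 when TRAIL was given with C3/C2 and with SN. OAS1, which makes the second messenger of RNase L, rose by 1.41, 1.17 and 1.51 in the same 3 treatments. With C3/C2 alone, ISG15 and OAS1 differed by 0.70 and 0.77, at adjusted p of 0.000336 and 0.00066. MX2, a GTPase that restricts retroviruses, rose with TRAIL+C3/C2 by 1.40 (SE 0.50, adjusted p = 0.0174), and its second, dimmer probe differed there by 0.66 and was not called.

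ISG20, an exonuclease that degrades RNA, rose with SN and with TRAIL+SN. ISG20 levels were 2.94, 2.91, 2.40 and 2.41 in NT, 2.84, 2.53, 2.28 and 2.29 in C3/C2 and 4.16, 4.10, 3.53 and 3.53 in SN. ISG20 stood at 3.30, 3.46, 3.03 and 3.02 in TRAIL, 3.62, 3.53, 2.86 and 2.89 in TRAIL+C3/C2 and 4.76, 4.94, 4.24 and 4.20 in TRAIL+SN. The SN arrays lay above all NT and C3/C2 arrays, and those of TRAIL+SN above all others. The difference was 1.17 (SE 0.22, adjusted p = 6.97e-05) with SN and 1.87 (SE 0.22, adjusted p = 1.29e-07) with TRAIL+SN, against -0.18 with C3/C2 (adjusted p = 0.501).

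**Figure D4:**
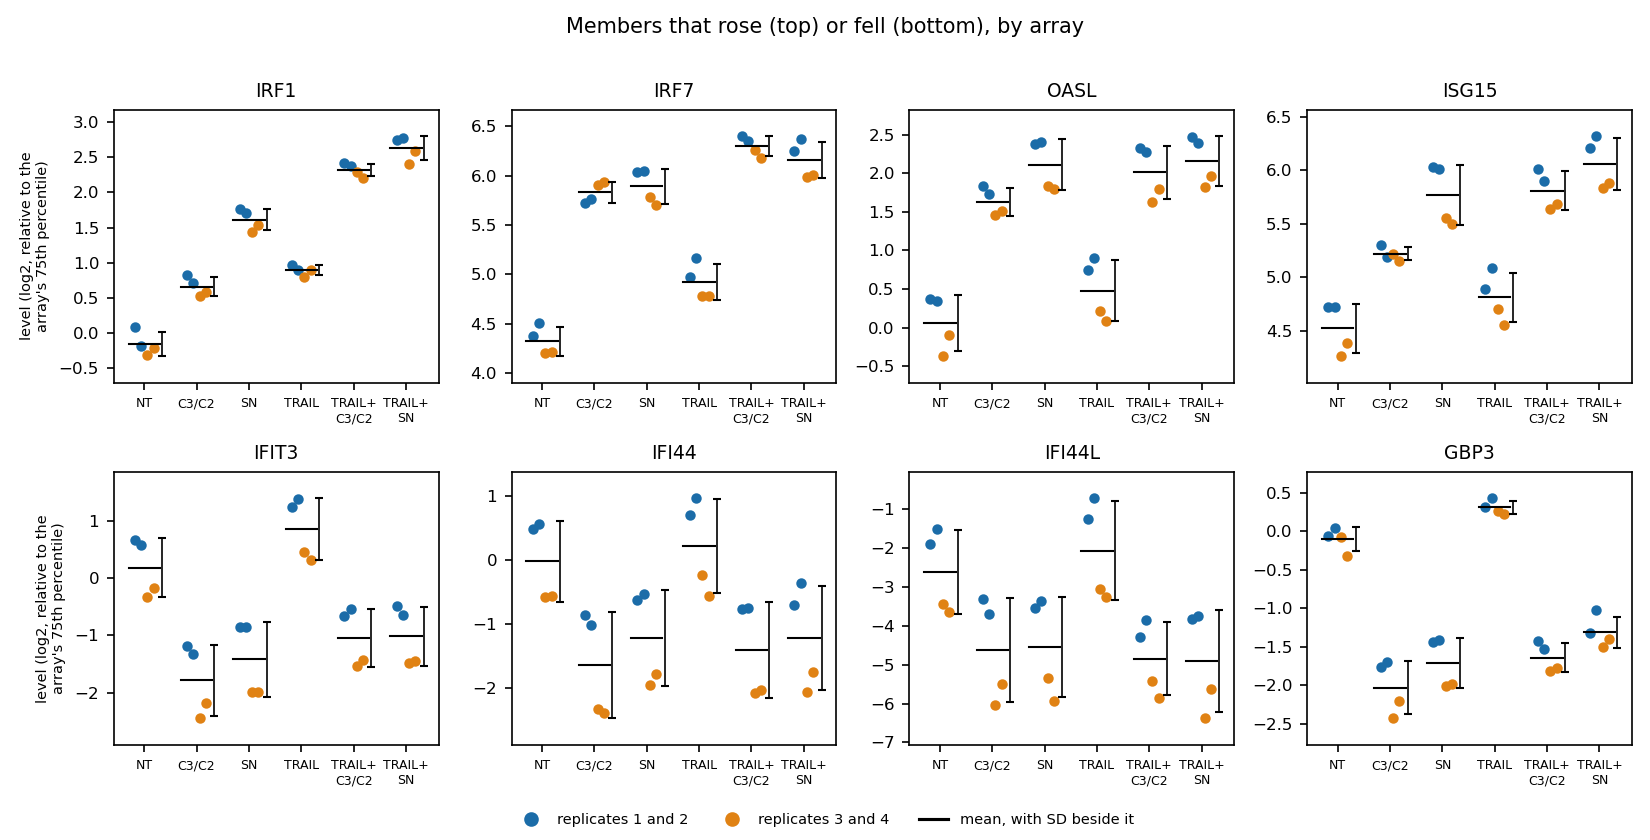
Levels (y axis, log2 relative to the array's 75th percentile) of 8 members on each of the 24 arrays, with replicates 1 and 2 in blue, 3 and 4 in orange, and the mean with its SD in black. IRF1, IRF7, OASL and ISG15 rise with C3/C2, SN or the co-treatments, and IFIT3, IFI44, IFI44L and GBP3 fall in the same groups while TRAIL alone stays near or above NT.

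Falls were led by IFI44L, IFIT3 and GBP3. IFIT3, an antiviral protein that works in complex with IFIT1, fell in all 4 treatments with C3/C2 or SN. IFIT3 levels were 0.66, 0.58, -0.34 and -0.17 in NT, -1.19, -1.32, -2.45 and -2.19 in C3/C2 and -0.86, -0.86, -1.99 and -1.99 in SN. IFIT3 stood at 1.24, 1.38, 0.45 and 0.31 in TRAIL, -0.67, -0.55, -1.54 and -1.44 in TRAIL+C3/C2 and -0.49, -0.64, -1.48 and -1.45 in TRAIL+SN. Within replicates 1 and 2 and within replicates 3 and 4, all arrays of these treatments lay below those of NT. The difference was -1.97 (SE 0.38, adjusted p = 0.000106) with C3/C2, which is 3.91-fold lower, and -1.61 (SE 0.38, adjusted p = 0.000741) with SN. With the co-treatments it was -1.23 and -1.20. IFIT1, from the same family, differed by 0.82 with C3/C2, in the other direction, at an adjusted p of 0.238. IFIT1, IFIT2, IFIT5 and OAS3 were called in none of the treatments, with differences from -0.47 to 0.82 on their brightest probes. The IFIT2 probes disagreed in direction. The brightest differed by 0.21 with SN, 0.51 with TRAIL and 0.43 with TRAIL+SN, and the dimmer one by -0.46, -0.39 and -0.28. Neither was called.

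GBP3 belongs to the guanylate-binding proteins, GTPases that attack intracellular pathogens. GBP3 levels were -0.06, 0.04, -0.08 and -0.32 in NT, -1.76, -1.70, -2.43 and -2.21 in C3/C2 and -1.44, -1.41, -2.01 and -1.99 in SN. GBP3 stood at 0.31, 0.43, 0.27 and 0.23 in TRAIL, -1.42, -1.53, -1.81 and -1.78 in TRAIL+C3/C2 and -1.32, -1.02, -1.50 and -1.40 in TRAIL+SN. Its NT and TRAIL arrays did not overlap those with C3/C2 or SN. Its difference from NT was -1.92 (SE 0.16, adjusted p = 1.32e-09) for C3/C2, -1.61 (SE 0.16, adjusted p = 1.71e-08) for SN, -1.53 (SE 0.16, adjusted p = 3.65e-08) for TRAIL+C3/C2 and -1.20 (SE 0.16, adjusted p = 1.1e-06) in TRAIL+SN, all called lower. The other GBP3 probe was called lower in the same 4 treatments, and with normexp the difference for TRAIL+SN was -0.98 and missed the 2-fold limit. GBP2 differed by -0.67 with C3/C2 and -0.78 with SN, at adjusted p of 6.65e-08 and 5.29e-09, short of 2-fold.

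IFI44 and IFI44L are neighbouring interferon-induced genes. IFI44 levels were 0.49, 0.57, -0.58 and -0.57 in NT, -0.86, -1.02, -2.33 and -2.40 in C3/C2 and -0.62, -0.53, -1.96 and -1.79 in SN. IFI44 stood at 0.70, 0.97, -0.23 and -0.56 in TRAIL, -0.76, -0.75, -2.09 and -2.03 in TRAIL+C3/C2 and -0.71, -0.36, -2.07 and -1.75 in TRAIL+SN. All arrays of C3/C2 and TRAIL+C3/C2 lay below all those of NT. The highest arrays of SN and TRAIL+SN lay within the range of NT, but neither group overlapped NT within replicates 1 and 2 or within replicates 3 and 4. The differences of IFI44 were -1.47 in replicates 1 and 2 and -1.79 in replicates 3 and 4 with C3/C2, and -1.11 in replicates 1 and 2 and -1.30 in replicates 3 and 4 with SN. This split of the replicates was added after the values were seen. Over all arrays the difference of IFI44 was -1.63 (SE 0.51, adjusted p = 0.00782) with C3/C2, and it was -1.20, -1.39 and -1.20 with SN and the co-treatments, all called lower. IFI44L levels were -1.90, -1.51, -3.44 and -3.66 in NT, -3.31, -3.69, -6.04 and -5.49 in C3/C2 and -3.55, -3.37, -5.35 and -5.93 in SN. IFI44L stood at -1.27, -0.73, -3.06 and -3.27 in TRAIL, -4.30, -3.85, -5.41 and -5.86 in TRAIL+C3/C2 and -3.84, -3.75, -6.38 and -5.62 in TRAIL+SN. IFI44L was well above background on all arrays of NT and TRAIL, on 3 of 4 in C3/C2 and SN and on 2 of 4 in both co-treatments. Its difference was -2.01 (SE 0.81, adjusted p = 0.0362) for C3/C2, -1.92 (SE 0.81, adjusted p = 0.0404) for SN, -2.23 (SE 0.81, adjusted p = 0.019) for TRAIL+C3/C2 and -2.27 (SE 0.81, adjusted p = 0.0167) in TRAIL+SN, all called lower. With normexp it was -0.86 for SN, -0.68 for TRAIL+C3/C2 and -0.72 in TRAIL+SN, none of them 2-fold. IFI44L calls were lost for C3/C2 and SN without NT replicate 1 or 2 or the treated replicate 3 or 4 (-1.76 to -1.46), for TRAIL+C3/C2 without NT replicate 1 or 2 or its own replicate 4 (-1.98 to -1.86), and for TRAIL+SN without NT replicate 2 or its own replicate 3 (-1.90 to -1.78). IFI44 calls with SN and the co-treatments were lost without NT replicate 1 or 2 or the treated replicate 3 or 4 (-1.21 to -0.92).

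OAS2, a larger enzyme of the OAS family, fell with C3/C2, at a difference of -1.81 (SE 0.58, adjusted p = 0.00927), and with TRAIL+C3/C2, at -1.34 (SE 0.58, adjusted p = 0.0443). With SN its difference was -1.17, with an adjusted p of 0.0764, and with the replicate block it was called (adjusted p = 1.42e-07). DDX60, a helicase that assists RNA sensors, fell with C3/C2, at -1.41 (SE 0.52, adjusted p = 0.0225), and with TRAIL+SN, at -1.19. With the block DDX60 was also called lower with SN (adjusted p = 0.000278) and TRAIL+C3/C2 (adjusted p = 1e-04). The other 2 OAS2 probes differed by -1.38 to -0.44 in the 4 treatments with C3/C2 or SN and were not called. Among the sensors themselves, IFIH1, which detects long double-stranded RNA, rose with TRAIL+SN by 1.02 (SE 0.17, adjusted p = 1.95e-05). DDX58, which detects short RNA ends, was called in none, with differences from -0.87 in C3/C2 to 0.70 in TRAIL.

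IFI27, a mitochondrial protein, was lowest with SN, TRAIL and the co-treatments. Its levels were 4.87, 5.11, 3.39 and 3.39 in NT, 4.53, 4.74, 3.36 and 3.36 in C3/C2 and 3.78, 3.62, 1.58 and 1.74 in SN. IFI27 stood at 3.90, 3.95, 2.22 and 2.09 in TRAIL, 3.80, 3.58, 1.97 and 2.04 in TRAIL+C3/C2 and 3.69, 3.62, 1.80 and 1.83 in TRAIL+SN. Within replicates 1 and 2, as within replicates 3 and 4, these groups lay below both NT and C3/C2. IFI27 fell with SN, at a difference of -1.51 (SE 0.67, adjusted p = 0.0493). With the replicate block it was also called lower with TRAIL (difference -1.15, adjusted p = 8.51e-07) and with TRAIL+C3/C2 (difference -1.34, adjusted p = 9.88e-09). IFI27 was low with TRAIL+SN too, but was not called there without the block. The block is not given for TRAIL+SN, where the replicate numbers did not pair every array with NT. IFI6, IFITM1, IFITM2, IFITM3 and IFI35, the remaining members of this group, were called in none of the treatments, with differences from -0.56 to 0.92.

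Among the 6 genes of peptide supply, TAP1 and PSMB9 rose, and their annotated starts lie 488 bases apart in RefSeq (GRCh38.p14). TAP1 levels were 2.40, 2.59, 1.64 and 1.67 in NT, 3.14, 2.94, 2.52 and 2.56 in C3/C2 and 3.36, 3.47, 2.77 and 2.77 in SN. TAP1 stood at 3.68, 3.90, 3.03 and 3.14 in TRAIL, 3.55, 3.49, 2.73 and 2.77 in TRAIL+C3/C2 and 3.86, 3.64, 3.05 and 3.00 in TRAIL+SN. Replicates 1 and 2 lay above 3 and 4 in all groups, and within each of these pairs every treated array lay above those of NT. TAP1, a subunit of the peptide transporter, rose most with TRAIL, by 1.36 (SE 0.28, adjusted p = 0.000758), or 2.57-fold. It also rose with SN by 1.02 (SE 0.28, adjusted p = 0.00269), with TRAIL+C3/C2 by 1.06 (SE 0.28, adjusted p = 0.00194) and with TRAIL+SN by 1.31 (SE 0.28, adjusted p = 0.000256), and its mean was no higher in either co-treatment than with TRAIL alone. PSMB9 levels were 0.01, -0.09, -1.25 and -1.24 in NT, 0.51, 0.29, -0.30 and -0.43 in C3/C2 and 1.06, 0.91, -0.04 and -0.21 in SN. PSMB9 stood at 0.93, 1.09, -0.26 and -0.42 in TRAIL, 1.10, 0.96, -0.25 and -0.07 in TRAIL+C3/C2 and 1.11, 1.22, 0.07 and 0.04 in TRAIL+SN. As for TAP1, no treated array lay at or below the NT arrays of its own pair of replicate numbers. PSMB9, an immunoproteasome subunit, rose with SN by 1.07 (SE 0.44, adjusted p = 0.0364), with TRAIL+C3/C2 by 1.08 (SE 0.44, adjusted p = 0.0358) and with TRAIL+SN by 1.25 (SE 0.44, adjusted p = 0.0156), and with TRAIL it differed by 0.98 (adjusted p = 0.0962). Under spike-in scaling the differences with TRAIL+C3/C2 were 0.33 for TAP1 and 0.34 for PSMB9, and neither was called. Those with TRAIL+SN were 0.80 and 0.75 and were not called either. Without NT replicate 3 or 4 or the treated replicate 1 or 2, PSMB9 lost its 3 calls (differences of 0.85 to 1.09) and TAP1 those with SN and TRAIL+C3/C2 (0.88 to 0.94).

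**Figure D5:**
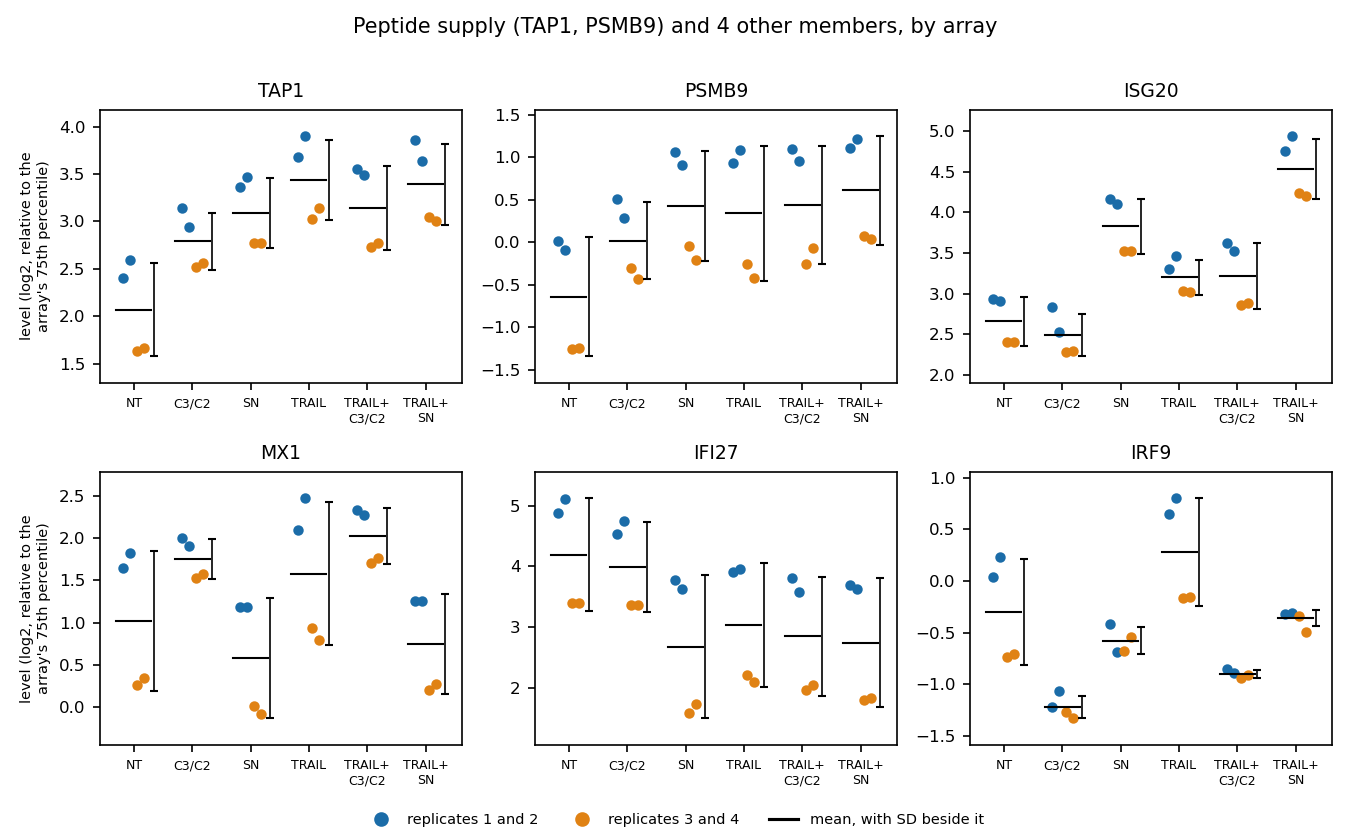
Levels (y axis, log2 relative to the array's 75th percentile) of TAP1, PSMB9, ISG20, MX1, IFI27 and IRF9 on the 24 arrays, with replicates 1 and 2 in blue, 3 and 4 in orange, and the mean with its SD in black. TAP1 is highest with TRAIL, ISG20 is high in SN and TRAIL+SN, MX1 is low there, and IRF9 loses its spread between replicate numbers in the 4 groups with C3/C2 or SN.

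The remaining 4 peptide supply genes were not called on their brightest probes. PSMB8 and PSMB10 differed by -0.58 and -0.90 with C3/C2 and by 0.62 and 0.56 with TRAIL. TAP2, the partner of TAP1, differed by 0.02 with C3/C2 and 0.74 with TRAIL+SN, its lowest and highest values. TAPBP, the loading factor, differed by 0.68 (SE 0.12, adjusted p = 0.000285) with TRAIL on its brightest probe, short of 2-fold. TAPBP probes gave different calls: a dimmer one was called higher with TRAIL (1.10), and another, well above background on 1 of 4 NT arrays, with TRAIL and both co-treatments (1.01 to 1.08).

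The 5 class I genes were well above background on all 24 arrays. Levels in NT averaged 5.59 ± 0.20 for B2M, the shared light chain, 5.16 ± 0.30 for HLA-C, 4.44 ± 0.31 for HLA-B, 4.14 ± 0.24 for HLA-E and 5.72 ± 0.14 for HLA-F (SD, n = 4). None of the 5 was called in any treatment by its brightest probe. The largest difference was that of HLA-E, the ligand of an inhibitory receptor on natural killer cells, with SN, at 0.87 (SE 0.15, adjusted p = 2.13e-05). HLA-F differed by 0.68 with SN and 0.79 with TRAIL+SN, at adjusted p of 2.76e-05 and 3.83e-06. A dimmer HLA-F probe was called higher in 4 treatments, by 1.20 for C3/C2 and 1.41 for SN alone and by 1.80 and 1.70 for these with TRAIL, so the probes of this gene disagree in their calls. HLA-B differed by -0.20 with TRAIL and by 0.37 with C3/C2, and its dimmest probe, which has no mapped position in the files, differed by 1.05 with C3/C2 and 1.21 with SN, was not called, and lay 2.65 higher in replicates 1 and 2 than in 3 and 4 of NT. Class I genes are near copies of each other, and 1 probe named for HLA-C covers 41 and 51 of the same hg19 bases as the probes named for HLA-B, so single class I genes are uncertain.

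TRAIL alone raised TAP1 and IRF1, and most other members differed from NT by less than 2-fold in the same direction. Differences from NT were above 0 in 37 of the 42 members, with a median of 0.45 against 0.03 over all genes, and in the same number of members the difference was above 0 both in replicates 1 and 2 and in replicates 3 and 4. Scaled to the spike-in probes, 33 members were above 0, with a median of 0.19 against -0.22 over all genes. With the replicate block, 36 members were higher at an adjusted p under 0.05 at any fold, against 25.6% of all genes, and 3 were lower, against 16.5%. This combination was added after the data were seen. Read from their brightest probes, all 12 cytosolic effectors and all 6 peptide supply genes were among the 36. A dimmer IFIT2 probe differed from NT by -0.39 with TRAIL, in the other direction. IFI27, HLA-B and NLRC5 were the 3 that were lower. Without the block, 11 members were higher at any fold and 0 lower, and no share over all genes is given at that setting. Those 11 included IFIH1, with a difference of 0.96 (SE 0.17, adjusted p = 0.000217), DDX58, with 0.70 (SE 0.18, adjusted p = 0.00555), and PSMB10, with 0.56 (SE 0.08, adjusted p = 2.98e-05). IFIT3, which fell with C3/C2, differed by 0.67 with TRAIL (adjusted p = 0.186, and 1.08e-06 with the block). Since the NT and TRAIL arrays lay on different slides, the slide cannot be told apart from TRAIL in these counts.

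SN and C3/C2 were set against each other directly, since the supernatant contains these acids. Of 42 members, 1 was higher with SN (2.38%, against 1.28% of all genes) and 1 lower (2.38%, against 4.41%). ISG20 was higher, by 1.34 (SE 0.22, adjusted p = 3.87e-05). MX1, a GTPase that blocks influenza virus, was lower, at -1.17 (SE 0.42, adjusted p = 0.0271). Its levels were 1.64, 1.82, 0.26 and 0.35 in NT, 2.00, 1.91, 1.53 and 1.57 in C3/C2 and 1.19, 1.19, 0.02 and -0.08 in SN. In the co-treatments MX1 was at 2.33, 2.27, 1.70 and 1.76 with TRAIL+C3/C2 and 1.26, 1.25, 0.21 and 0.27 with TRAIL+SN, and with TRAIL alone at 2.10, 2.47, 0.94 and 0.80. All C3/C2 arrays lay above all SN arrays, and both co-treatments kept that order. Between TRAIL+SN and TRAIL+C3/C2, which lay on a single slide, ISG20 was higher by 1.31 (SE 0.22, adjusted p = 7.56e-05) and MX1 lower, at -1.27 (SE 0.42, adjusted p = 0.0222), again 1 member each way (0.976% and 2.56% of all genes). The count of members lower went from 1 to 0 in both comparisons when replicate 1 or 2 of the group with C3/C2, or replicate 3 or 4 of the group with SN, was left out. SN and C3/C2 lay on different slides, so there the slide and the treatment cannot be told apart. IRF1 was higher with SN than with C3/C2 by 0.95 (adjusted p = 1.06e-07), just short of 2-fold, and with TRAIL+SN than with TRAIL+C3/C2 by 0.31 (adjusted p = 0.0158). IFI27 differed by -1.31 between SN and C3/C2 and was called lower with the replicate block (adjusted p = 7.4e-08, against 0.112 without it).

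No member was called for an interaction, which is the difference of a co-treatment from NT minus those of its 2 parts on the log2 scale. For C3/C2, 0 members were called above and 0 below (0.493% and 0.164% of all genes), and for SN 0 and 0 (2.76% and 0.333%). At an adjusted p under 0.05 at any fold, 1 member was above with C3/C2, and 1 was above and 1 below with SN. No shares over all genes are given at that setting. IRF1 was above the sum with C3/C2 by 0.62 (SE 0.14, adjusted p = 0.0131), but not with SN, where the interaction was -0.02 (SE 0.14). TAPBP lay below the sum with SN, at -0.67 (SE 0.18, adjusted p = 0.00945), and GBP2 above it, at 0.32 (SE 0.10, adjusted p = 0.0314). TAP1 had the lowest interactions of the 42 members, -1.02 (SE 0.39, adjusted p = 0.191) with C3/C2 and -1.07 (SE 0.39, adjusted p = 0.0547) with SN. In 35 of 42 members the interaction with SN was below 0, with a median of -0.28 against -0.01 over all genes, and in 27 of 42 with C3/C2. The co-treatments lay on a slide apart from those of NT and the single treatments, so the slide cannot be told apart from these interactions.

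Genes of the same pathway outside the set were counted by role. Of 24 interferon genes listed, 17 were on the array and 3 were tested, and IFNE, an epithelial interferon, fell with C3/C2, at a difference of -1.01 (SE 0.16, adjusted p = 1.34e-05). Of 6 receptor subunits tested, 2 rose with C3/C2 (33.3%, against 13.4% of all genes) and 2 with SN (33.3%, against 14.2%). TRAIL gave 1 (16.7%, against 0.749%), TRAIL+C3/C2 1 (16.7%, against 16.2%) and TRAIL+SN 3 (50%, against 16.1%), and 0 fell. IL28RA, the receptor chain of the lambda interferons, rose in the 4 treatments with C3/C2 or SN, by 1.21 to 1.59. IL10RB rose by 1.00 with C3/C2, 1.29 with SN and 1.03 with TRAIL+SN, and IFNAR2 by 1.02 with TRAIL+SN. IFNGR1, a chain of the interferon gamma receptor, rose with TRAIL by 1.31 (SE 0.10, adjusted p = 1.08e-08). Among 12 signalling and feedback genes, 0 rose with TRAIL, 3 with C3/C2 (25%, against 13.4% of all genes) and 4 with SN (33.3%, against 14.2%). TRAIL+SN gave 2 that rose (16.7%, against 16.1%) and TRAIL+C3/C2 4 (33.3%, against 16.2%), and 0 fell in any of these. SOCS3, an inhibitor of JAK and STAT signalling, was well above background on no array of NT or TRAIL and on every other array. Against the lowest signal well above background on each NT array, SOCS3 was at least 3.18-fold higher in C3/C2 (adjusted p = 6.19e-09). Adjusted p-values beside fold bounds, here and below, are those of the limma difference from 0 and do not test the bound. The bound was at least 6.84-fold for SN, and it reached at least 14.2-fold for TRAIL+SN (adjusted p = 1.39e-12). SOCS1 rose by 1.74 (SE 0.17, adjusted p = 6.92e-09) with SN, and by 2.15 and 2.25 when TRAIL was given with C3/C2 and with SN.

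Among 12 genes of nucleic acid sensing that were tested, 4 fell (33.3%, against 6.18% of all genes) and 1 rose (8.33%, against 13.4%) with C3/C2. With SN, 3 fell (25%, against 9.75%) and 2 rose (16.7%, against 14.2%). ZBP1, a sensor of Z-form nucleic acid, is counted among the genes that rose but was near background. It was well above background on 1 of 4 arrays in NT and in TRAIL, on 3 of 4 in C3/C2 and in SN, on 2 of 4 in TRAIL+C3/C2 and on all 4 in TRAIL+SN. ZBP1 levels were -6.30, -5.42, -6.92 and -7.50 in NT and -4.13, -3.44, -4.30 and -4.14 in TRAIL+SN. TMEM173, which encodes the DNA sensing adaptor STING, fell with C3/C2, at -1.22 (SE 0.17, adjusted p = 2.88e-06), and with SN, at -1.37 (SE 0.17, adjusted p = 4.64e-07). Of 32 other interferon-inducible genes tested, 10 fell (31.2%, against 6.18% of all genes) and 0 rose with C3/C2, and 9 fell (28.1%, against 9.75%) and 2 rose with SN. With TRAIL+C3/C2, 8 fell (25%, against 7.94%) and 1 rose, and with TRAIL+SN, 7 fell (21.9%, against 10.1%) and 1 rose. The shares that rose, 3.12% to 6.25% where any did, were below those of all genes, 13.4% to 16.2%. DTX3L, a ubiquitin ligase, fell in these 4 treatments, with differences from -2.64 (SE 0.14, adjusted p = 1.1e-12) in C3/C2 to -1.86 (SE 0.14, adjusted p = 2.36e-10) in TRAIL+SN. RSAD2, the antiviral protein viperin, was at least 4.32-fold lower than NT with C3/C2 (adjusted p = 0.000107), where no array was well above background.

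CXCL10, a chemokine that draws T cells, was the only gene of the 32 that rose with TRAIL. CXCL10 levels were -6.82, -5.31, -7.78 and -7.81 in NT, -3.22, -3.05, -4.09 and -3.75 in TRAIL, -3.92, -3.53, -3.59 and -4.06 in TRAIL+C3/C2 and -6.82, -6.18, -6.74 and -5.86 in TRAIL+SN. It was well above background on all arrays of TRAIL and TRAIL+C3/C2, on 1 of 4 in NT and on none of TRAIL+SN. CXCL10 rose by 3.40 (SE 0.42, adjusted p = 3.61e-06) with TRAIL and by 3.15 (SE 0.42, adjusted p = 9.71e-07) with TRAIL+C3/C2, and it was at least 2.48-fold lower with TRAIL+SN than with TRAIL+C3/C2 (adjusted p = 4.96e-05). Of 26 further antigen presentation genes tested, 3 rose with C3/C2 (11.5%, against 13.4% of all genes), 5 with SN (19.2%, against 14.2%), 0 with TRAIL and 4 with each co-treatment (15.4%, against 16.1% or 16.2%). In none of the treatments did any of them fall. MICB, a stress-induced ligand of the receptor NKG2D on natural killer cells, showed the largest of these rises. MICB levels were -4.56, -5.26, -4.83 and -3.62 in NT, 0.28, 0.25, 0.44 and 0.33 in C3/C2, 0.72, 0.72, 0.57 and 0.58 in SN and -4.74, -4.62, -4.72 and -5.11 in TRAIL. It rose by 4.89 (SE 0.22, adjusted p = 5.39e-14) with C3/C2 and 5.21 (SE 0.22, adjusted p = 1.47e-14) with SN, and its relative MICA by 1.56 and 1.84. HLA-DMB, which loads class II molecules, rose by 1.93 (SE 0.12, adjusted p = 1.01e-11) with C3/C2.

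The label of the cells was checked against markers. All 10 colon epithelial markers were well above background on all 24 arrays, with levels in NT from -1.02 to 8.71. Of 10 leukocyte markers on the array, 3 were well above background throughout and the median level in NT was -5.11, and of 6 fibroblast and endothelial markers 3 were, with a median of -5.33. COL1A1 was well above background on no array of NT or TRAIL and on all 4 of C3/C2, and ITGAM was higher with TRAIL by 2.33, while PTPRC, the pan-leukocyte marker, was at -4.04, -4.29, -4.24 and -3.82 in NT and -3.95, -4.31, -3.89 and -4.01 in C3/C2. Their part in the members' values was not tested. The median over arrays of the 75th percentile of intensity ran from 502.8 in TRAIL+C3/C2 to 882.7 in NT. Per the study's methods, each sample was labelled from the same amount of total RNA. Each array likewise received the same amount of labelled RNA. Levels in these bulk samples are thus per amount of RNA and not per cell, so a change in RNA per cell is not visible in them. The cause of the difference in intensity was not tested.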

How the data were processed

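Total RNA of HT29 cells was labelled with Cy3 and hybridised to 1-colour Agilent arrays, 24 in all and 4 per group. Per the file headers, the authors scanned the arrays and read the intensity of each spot in Agilent Feature Extraction, with background subtraction and detrending. The deposited table of processed values holds these intensities on a scale set by each array's median and served as a check on scale and direction. Groups and replicate numbers came from the sample titles.

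Processed intensities were taken to log2, spots with an outlier flag were left out, the mean over a probe's spots was taken, and each array's 75th percentile was subtracted. Probes were kept where 1 group or more had all 4 arrays well above background, and a gene was read from its brightest such probe. The 6 group means were fitted with limma 3.58.1 in R 4.3.3 (lmFit and eBayes, two-sided, 18 residual degrees of freedom), with Benjamini-Hochberg adjustment over 20703 genes. A call needed a 2-fold change and an adjusted p under 0.05. The procedure was tested on simulated data with known changes. With 4 arrays per group, the median standard error of a difference was 0.108 over genes.

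Values on every array were given for the transcription factors, for up to 3 called members per direction and treatment, taken by size of change, and for called class I and peptide supply genes. IFI6, IFI27, MX1 and the pathway genes CXCL10, MICB and PTPRC were added after their values were seen. The members, lists and tests were chosen with earlier results of these data known.

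Same-numbered arrays deviated together, with correlations of residuals over genes above 0.1 in every pair between NT and C3/C2 (0.238 to 0.475), SN (0.133 to 0.231), TRAIL (0.139 to 0.23) and TRAIL+C3/C2 (0.112 to 0.194), but not in every pair between NT and TRAIL+SN (from 0.0901). The pairing comes from the numbers in the sample titles. Alternatives were other scalings, normexp background correction (offset 50), other probe filters, the mean over probes, no minimum fold, fits of the compared groups alone, slide or replicate number as a block, and each array left out in turn. Fold bounds for probes not well above background used the lowest signal well above background on each array. The p-values printed with them are of the limma fit to the measured values and do not test the bounds. Promoter windows were searched with Python 3.11.15.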

Additional observations from a re-analysis of the deposited data

Results flagged for a closer look

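The level of IRF9 on TRAIL+SN replicate 4 was -0.49, apart from the other 3 arrays of its group, which lay between -0.34 and -0.31. Chance sets an array of a group of 4 apart in this way in about 1 of 20 groups, and the whole range of the group was small beside the spread of IRF9 in NT, from -0.74 to 0.23. Among the pathway genes, the interaction of TRAIL and SN was -1.04 for IFNGR1, a chain of the interferon gamma receptor (adjusted p = 5.65e-05 in the limma fit). As for the members, the slide cannot be told apart from this interaction. The same interaction was -2.50 for CXCL10 (adjusted p = 0.00467 in the limma fit), which was well above background on all 4 arrays of TRAIL, on 1 of NT and on none of SN or TRAIL+SN, so that this value sets TRAIL against signal near background and gives no size.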

How the results depend on the processing

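For the named members, 808 values under alternatives were set against 40 called differences: 721 kept the call, 87 lost it and 0 changed direction. The counts moved more. Here and below they are given without the shares of all genes under the same settings, so they describe the members alone. Scaled to the spike-in probes, the median difference of all genes was itself -0.63 with TRAIL+C3/C2. Without a filter on dim probes, 3 members fell with SN and 3 with TRAIL+SN. With no minimum fold, 9 rose and 11 fell with C3/C2, 16 rose with SN, 11 rose with TRAIL, 15 rose and 9 fell with TRAIL+C3/C2, and 16 rose and 8 fell with TRAIL+SN. The same setting gave 9 higher with SN than with C3/C2, 6 higher and 2 lower with TRAIL+SN than with TRAIL+C3/C2, 1 above for the interaction with C3/C2, and 1 above and 1 below for that with SN. With normexp, 1 rose with TRAIL, 3 fell with TRAIL+SN and 1 interaction with SN was below. Scaling to the array median gave 3 higher and 8 lower with TRAIL+C3/C2, 2 higher with SN than with C3/C2 and 1 below for the interaction with SN. Scaling to the spike-in probes gave 3 lower with SN, 1 higher with TRAIL, 3 higher and 11 lower with TRAIL+C3/C2, 5 higher with TRAIL+SN, 2 higher and 0 lower with SN than with C3/C2, 0 lower with TRAIL+SN than with TRAIL+C3/C2, and 1 below for the interaction with SN. Requiring signal on all 24 arrays also gave 1 below for that interaction, over fewer genes tested. The cause of these changes was not tested.

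With the replicate block, 1 member fell with TRAIL and 2 were lower with SN than with C3/C2, 1 interaction with C3/C2 was below, and 1 with SN was above and 1 below. The block with no minimum fold, chosen after seeing the data, gave 36 higher and 3 lower with TRAIL. Between NT and TRAIL+SN, where the numbers did not pair every array, the block is a value of these arrays alone, as for the interactions. In all, 21 of 24 arrays correlated best with arrays of their own number.

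Leaving out 1 array at a time gave 2 members higher and 5 to 8 lower with C3/C2, 6 to 9 higher and 3 to 8 lower with SN, and 1 to 3 higher and 0 lower with TRAIL. It gave 5 to 9 higher and 2 to 6 lower with TRAIL+C3/C2, and 7 to 11 higher and 2 to 6 lower with TRAIL+SN. Counts of members that fell were 2 or 3 without NT replicate 1 or 2, or without treated replicate 3 or 4, in SN, TRAIL+C3/C2 and TRAIL+SN. Those that rose with TRAIL+C3/C2 were 5 without NT replicate 3 or 4 or its own replicate 1, and 1 rose with TRAIL without NT replicate 3. Between SN and C3/C2, 1 or 2 were higher (2 without C3/C2 replicate 1 or SN replicate 3) and 0 or 1 lower, and between the co-treatments 1 was higher and 0 or 1 lower. Interactions gave 0 calls, except that 1 lay below with SN without NT replicate 1 or 2, SN replicate 3 or 4, TRAIL replicate 3 or 4, or TRAIL+SN replicate 1. IRF2, IFI44L and GBP1 were near background, which limits their values.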
